A study of Homo sapiens with 6 samples.

Results

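The genes described here encode inflammasomes, the protein platforms with which myeloid cells answer infection and damage. They are 10 gene symbols of the 23710 in the deposited count table: the sensors NLRP1, NLRP3, NLRP12, NLRC4 and AIM2, the adaptor PYCARD, the caspases CASP1, CASP4 and CASP5, and the pore protein GSDMD. The members are the rows of the table with these symbols. The RNA came from THP-1, a line of human monocyte-like leukaemia cells. Of 6 libraries, 3 were from cells given 10 uM mebendazole for 6 h and 3 from cells given DMSO, the solvent, for as long. Mebendazole is a worm drug that binds beta tubulin and stops microtubules from forming. The labels number the libraries as 3 sample pairs, each with a drug and a vehicle library, and do not say whether pairs were separate cultures, so p-values cover the spread among these libraries alone, and that spread may be technical.

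When a sensor detects a microbial product or cell damage, it assembles with PYCARD (also called ASC), which links sensors to the protease caspase-1 encoded by CASP1. Caspase-1 cuts the precursors of the cytokines IL-1 beta and IL-18 and cuts gasdermin D, the product of GSDMD, whose fragment then forms pores in the plasma membrane. CASP4 and CASP5 encode caspases that bind bacterial lipopolysaccharide in the cytosol and also cut gasdermin D. Microtubules carry NLRP3 to its site of assembly, and the tubulin-binding drug colchicine is used against disease of the pyrin inflammasome. In monocytes, transcription of IL1B and NLRP3 is usually induced before assembly, a step called priming.

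Counts ranged from 13420558 to 15727667 reads per library. Levels are in CPM, a gene's reads over the library total after TMM scaling, which evens out the bulk of genes between libraries. Genes were called at an adjusted p under 0.05 in edgeR's quasi-likelihood test with Benjamini-Hochberg adjustment over all 13591 genes that passed the count filter. Most genes were called different between these 2 groups of libraries: 82.3% of the genes tested were called, 40.6% higher and 41.7% lower with mebendazole. A call alone therefore says little about any gene, and sizes are given beside calls. Of the 10 members, 8 passed the filter, of which 1 rose, 5 fell and 2 were not called. Their median log2 fold change was -0.56, against -0.03 over all genes tested, which describes these genes and was not tested. AIM2 and CASP5 were under the filter. In bulk RNA, fewer cells of a kind and less RNA per cell cannot be told apart.

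The labelled cell type was checked against 8 monocyte markers, all of which were read in every library. Their summed level was 1730 to 1780 CPM in the mebendazole libraries and 1750 to 1850 CPM in the DMSO libraries. Of these markers 6 fell, among them CD14, CD33 and FCGR1A, and 2, SPI1 and CD68, rose (log2 fold changes of 0.98 and 0.10, the second smaller than the shift between scalings given further on). Their part in the changes described here was not tested. Summed markers of T cells lay at 0 CPM with mebendazole and at 0.118 to 0.263 CPM with DMSO, those of B cells at 1.10 to 1.56 and 0.941 to 1.15 CPM, those of erythroid cells at 0.0767 to 0.157 and 0 to 0.118 CPM, and those of epithelial cells at 0.307 to 0.496 and 0.353 to 1.08 CPM. The list of fibroblast and endothelial markers summed to 125 to 147 CPM with mebendazole and 89.8 to 101 CPM with DMSO, nearly all of it PECAM1, which monocytes also express.

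Promoter windows are shown for the member that fell most (PYCARD), the only member called higher (NLRP3) and a pair of neighbouring paralogs that were read at very different levels (CASP4 and CASP5). Each is the 250 bases before the annotated gene start, from RefSeq on build GRCh38.p14, read 5′ to 3′ on the gene's strand. Capitals mark GGAAGT, a form of the motif bound by ETS factors such as PU.1 (the product of SPI1). They also mark the TATA motif TATAAA, and each was searched on either strand. The window of PYCARD lies on the minus strand at chr16:31202761-31203010, that of NLRP3 on the plus strand at chr1:247415923-247416172, that of CASP4 on the minus strand at chr11:104968575-104968824 and that of CASP5 on the minus strand at chr11:105023169-105023418.
PYCARD: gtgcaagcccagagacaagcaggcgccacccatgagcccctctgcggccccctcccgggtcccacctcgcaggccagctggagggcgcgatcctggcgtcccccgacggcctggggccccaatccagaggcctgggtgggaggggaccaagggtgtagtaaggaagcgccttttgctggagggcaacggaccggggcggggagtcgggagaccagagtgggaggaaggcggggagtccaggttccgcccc
NLRP3: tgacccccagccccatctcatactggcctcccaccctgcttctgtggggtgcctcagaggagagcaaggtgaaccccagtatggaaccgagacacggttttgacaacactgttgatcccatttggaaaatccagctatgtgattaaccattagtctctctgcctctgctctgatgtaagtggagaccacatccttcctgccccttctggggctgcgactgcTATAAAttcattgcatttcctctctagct
CASP4: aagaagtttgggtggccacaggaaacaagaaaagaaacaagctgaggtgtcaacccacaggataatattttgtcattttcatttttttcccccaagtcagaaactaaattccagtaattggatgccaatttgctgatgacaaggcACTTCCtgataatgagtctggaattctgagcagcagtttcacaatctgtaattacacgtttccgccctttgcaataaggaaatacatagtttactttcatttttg
CASP5: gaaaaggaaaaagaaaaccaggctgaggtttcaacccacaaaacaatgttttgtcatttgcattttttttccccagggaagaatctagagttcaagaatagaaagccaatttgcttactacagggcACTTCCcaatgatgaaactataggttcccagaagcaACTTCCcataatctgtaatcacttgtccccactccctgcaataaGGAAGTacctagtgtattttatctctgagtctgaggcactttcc

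The table of promoters held 7 of the 10 members. The window of PYCARD was rich in G and C (71.2%) and held 16 CpG dinucleotides, against a median of 11 over 27305 promoters of the same length. That number of CpG is ordinary, as 59.2% of all promoters held fewer. The window of NLRP3 had 3 CpG dinucleotides and the only TATAAA among the 7, a motif found in 11.1% of all promoters. GGAAGT was found in 5 of the 7 windows (NLRP12, NLRC4, AIM2, CASP4 and CASP5), against 19.9% of all promoters, and in neither PYCARD nor NLRP3. The shorter GGAA was not searched, and it can be read in the PYCARD and NLRP3 windows. Other motifs, not marked above, were searched as well. CCAAT was found in every window but that of NLRP3, against 33% of all promoters. Motifs of the factor AP-1 were found only in AIM2, against 6.6% of all promoters. Motifs of the factor NF-kB were found in no window, against 9.57%. The motifs were chosen after the sequences had been seen, and a match is a description of the letters only. The CASP4 and CASP5 windows had 65.1% identical positions in a global alignment, with 175 identical bases.

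The sensors did not move together. NLRP3, which responds to potassium efflux and many kinds of cell stress, stood at 164, 155 and 166 CPM in mebendazole replicates 1, 2 and 3, against 138, 129 and 130 CPM in DMSO replicates 1, 2 and 3. After TMM scaling, all mebendazole libraries lay above all DMSO libraries. NLRP3 rose modestly (log2 fold change 0.29, SE 0.04, adjusted p = 6.06e-10, edgeR), and 64.5% of the genes tested had a lower fold change. Scaled by library totals in place of TMM, its log2 fold change was 0.05 (adjusted p = 0.253, edgeR).

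NLRP1, a sensor that is held inactive by the dipeptidyl peptidases DPP8 and DPP9, was not called. It stood at 18.7, 18.2 and 20.3 CPM with mebendazole, against 17.0, 17.6 and 16.8 CPM with DMSO (log2 fold change 0.16, SE 0.08, adjusted p = 0.0704, edgeR). After TMM scaling, the mebendazole libraries were slightly higher without overlap. The sign turned with library totals (-0.09, adjusted p = 0.312), while without pair 2 the gene was called (0.22, adjusted p = 0.0331, edgeR).

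NLRC4 and NLRP12 fell. NLRC4 works with NAIP to detect flagellin and secretion system proteins of bacteria. It stood at 9.28, 6.52 and 9.05 CPM with mebendazole, against 17.7, 18.6 and 19.7 CPM with DMSO. The groups did not overlap, and mebendazole replicate 2 was the lowest library. NLRC4 was 2.24-fold lower (log2 fold change -1.17, SE 0.10, adjusted p = 8.3e-17, edgeR).

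NLRP12, an NLR protein of myeloid cells known mostly as a brake on NF-kB signalling, had 14.5, 9.97 and 10.3 CPM with mebendazole, against 21.4, 20.7 and 22.6 CPM with DMSO. Mebendazole replicate 1 stood above the other mebendazole libraries and still below every DMSO library. NLRP12 was 1.86-fold lower (log2 fold change -0.89, SE 0.09, adjusted p = 8.78e-14, edgeR). AIM2, the sensor of double-stranded DNA in the cytosol, had 1 read in mebendazole replicate 1, 1 read in DMSO replicate 3 and none elsewhere. Counting allows no fold change for AIM2, as 3 reads over a group correspond to 0.0753 CPM with mebendazole and 0.0639 CPM with DMSO.

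The adaptor PYCARD changed most of all members. Its level was 27.3, 21.7 and 22.6 CPM in the mebendazole libraries, against 97.3, 87.7 and 97.6 CPM in the DMSO libraries. Every mebendazole library held less than every DMSO library by a wide margin, and the spread within a group was small beside it. PYCARD was 3.94-fold lower (log2 fold change -1.98, SE 0.06, adjusted p = 2.78e-41, edgeR), the 486th lowest fold change of 13591. GENCODE 29 places an antisense gene over PYCARD on the other strand. The library kit named in the labels does not mark strand, so reads from stretches that both genes share cannot be told apart. Whether their exons overlap was not examined.

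The caspases differed from each other. CASP1 stood at 34.6, 35.1 and 35.6 CPM with mebendazole, against 69.0, 70.6 and 69.2 CPM with DMSO. The 3 libraries of each group were nearly level, and the groups were far apart. CASP1 was 1.98-fold lower (log2 fold change -0.99, SE 0.05, adjusted p = 5.1e-26, edgeR). Of the 50-base words in annotated CASP1 transcripts, 4.37% also occur in CARD16, a neighbouring gene that encodes the caspase-1 CARD without the protease. With the reads of CASP1 and CARD16 summed, an alternative added after seeing the data, the log2 fold change was -0.90.

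CASP4 was not called. It had 52.1, 53.5 and 50.1 CPM with mebendazole, against 51.1, 52.8 and 53.8 CPM with DMSO, and the groups overlapped. Its log2 fold change was -0.02 (SE 0.05, adjusted p = 0.758, edgeR), and lay at -0.26 (adjusted p = 1.19e-05) with library totals, where it counted as lower. CASP5 was hardly read, with 4, 5 and 11 reads in mebendazole replicates 1, 2 and 3 and 3, 4 and 7 reads in DMSO replicates 1, 2 and 3. Its ratio of summed counts, mebendazole over DMSO, was 1.68 with an exact 95% interval of 0.809 to 3.60, which covers counting error only. In a fit with no count filter CASP5 was not called either (adjusted p = 0.305, edgeR). CASP4 and CASP5 transcripts share few 50-base words (0.576% of those of CASP5).

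GSDMD, the substrate whose fragment makes the pores, stood at 49.7, 51.6 and 50.6 CPM with mebendazole, against 60.0, 61.2 and 56.8 CPM with DMSO. The groups lay close together without overlap. GSDMD fell slightly (log2 fold change -0.23, SE 0.05, adjusted p = 7.51e-05, edgeR), with a fold of 1.17. NLRP12, NLRC4, PYCARD and CASP1 also passed a test against a change of 1.5-fold, added after seeing the data, whereas NLRP3 and GSDMD did not (adjusted p = 1 each, edgeR). Of all 13591 genes tested, 5774 passed that test, so passing it is not particular to these members.

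**Figure D1:**
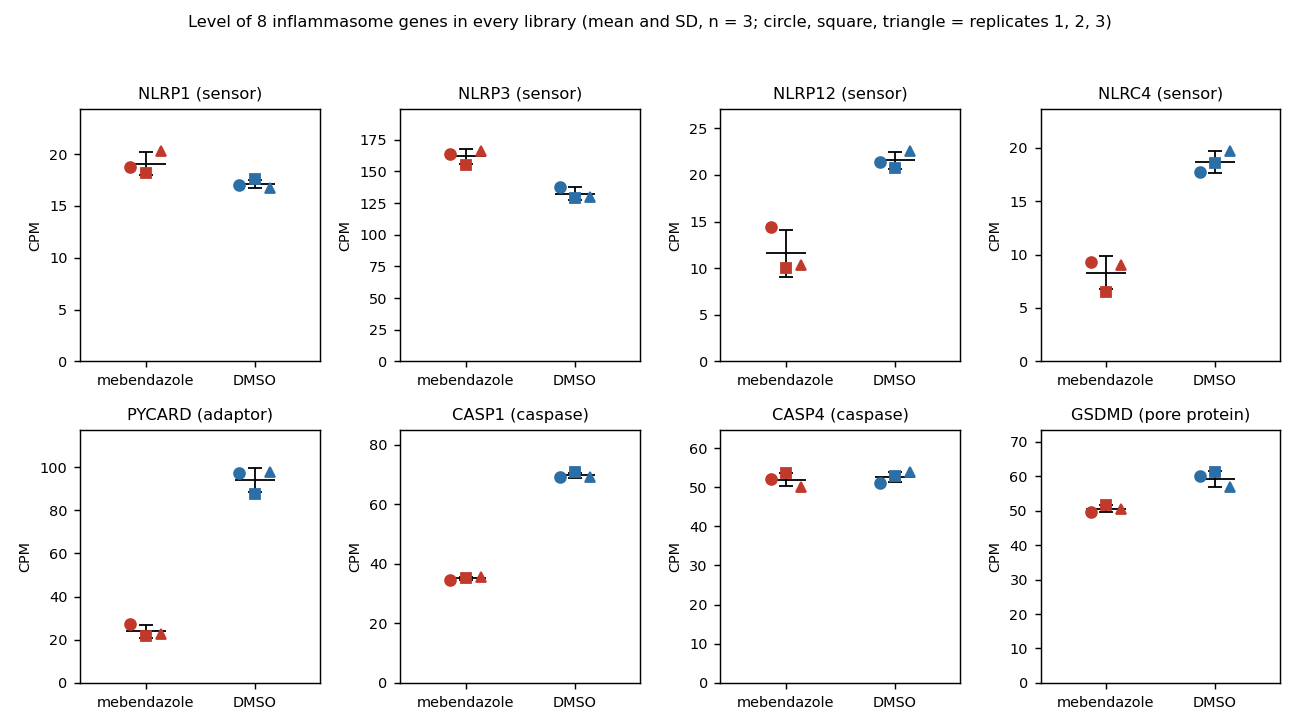
CPM of the 8 tested genes in each library (mebendazole left, DMSO right), with the mean and SD of 3 libraries (circle, square and triangle mark replicates 1, 2 and 3). PYCARD, CASP1, NLRC4, NLRP12 and, by a small margin, GSDMD are lower in every mebendazole library. With TMM scaling, NLRP3 and NLRP1 are higher in every mebendazole library, and CASP4 overlaps between groups. With library totals neither NLRP3 nor NLRP1 was called. The share of all genes whose groups lie apart was not counted.

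**Figure D2:**
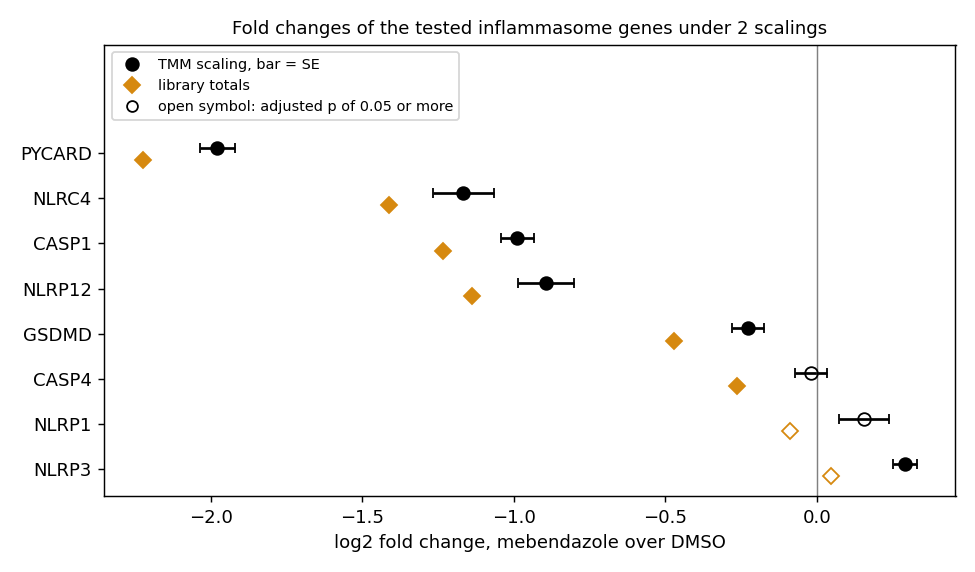
Log2 fold change, mebendazole over DMSO, of the 8 tested genes under TMM scaling (circles, bars give SE) and under library totals (diamonds), with open symbols for an adjusted p of 0.05 or more. Every point moves left with library totals, and NLRP3 lies at 0.29 with TMM and 0.05 with library totals.

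Scaling shifts all of these values together. Under library totals, the median over all genes shifted by -0.24 on the log2 scale and 36.4% of called genes were higher, against 49.3% with TMM. Of the members 0 were then called higher and 6 lower (NLRP1 and NLRP3 not called). Of all 13591 genes tested, 4181 were called higher and 7319 lower under library totals, so lower calls were common there. PYCARD, NLRC4, CASP1 and NLRP12 kept their direction and call in every alternative run, with log2 fold changes from -2.22 to -1.92 for PYCARD, -1.41 to -1.01 for NLRC4, -1.23 to -0.90 for CASP1 and -1.14 to -0.79 for NLRP12.

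Ratios between genes of the same library do not depend on scaling. NLRP3 had 6.02, 7.16 and 7.36 reads for each read of PYCARD in mebendazole replicates 1, 2 and 3, against 1.42, 1.47 and 1.33 in DMSO replicates 1, 2 and 3. The ratio was 4.85-fold higher with mebendazole, and the groups did not overlap. CASP1 had 1.49 ± 0.19 reads per PYCARD read with mebendazole and 0.741 ± 0.0554 with DMSO (SD, n = 3 each). CASP4 had 1.48 ± 0.0627 reads per CASP1 read with mebendazole and 0.755 ± 0.0194 with DMSO. GSDMD had 1.44 ± 0.026 reads per CASP1 read with mebendazole and 0.852 ± 0.0271 with DMSO.

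The ratio that differed most of the 6 was that of IL1B to the gene of the enzyme that processes its product. IL1B had 19.0, 15.4 and 17.1 reads for each CASP1 read in mebendazole replicates 1, 2 and 3, against 0.131, 0.113 and 0.109 in DMSO replicates 1, 2 and 3. That is a 146-fold higher ratio with mebendazole. CASP5 per CASP4 read, at 0.00996 ± 0.00639 with mebendazole and 0.00555 ± 0.00193 with DMSO, overlapped between groups. Of 6 ratios compared, the 5 without overlap each had p = 0.1 in a two-sided exact permutation test (adjusted p = 0.12), the smallest that 3 against 3 libraries allow, and CASP5 per CASP4 had p = 0.4.

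**Figure D3:**
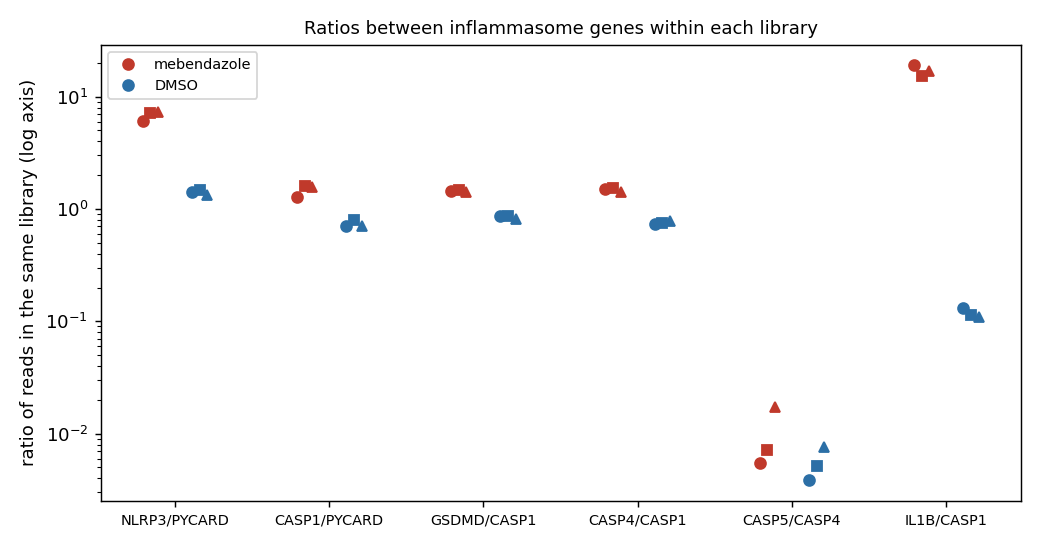
Ratio of the reads of 6 gene pairs within each library, on a log axis (mebendazole red, DMSO blue; circle, square and triangle mark replicates 1, 2 and 3). Groups are apart in every ratio but CASP5 per CASP4, and IL1B per CASP1 is about 17.2 with mebendazole and 0.118 with DMSO. Ratios of other gene pairs were not counted.

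To compare levels between genes, CPM was divided by the length in kb of each gene's principal transcript in GENCODE 29. In mebendazole libraries NLRP3 came first with 38.8 ± 1.38 CPM per kb (SD, n = 3), followed by PYCARD with 24.1 ± 3.03 and CASP4 with 24.1 ± 0.795, which overlapped, then GSDMD with 20.3 ± 0.378 and CASP1 with 17.5 ± 0.231. In DMSO libraries PYCARD came first with 95.1 ± 5.66 CPM per kb, followed by CASP1 with 34.8 ± 0.448 and NLRP3 with 31.7 ± 1.21, and by CASP4 with 24.4 ± 0.622 and GSDMD with 23.8 ± 0.907, which overlapped. NLRP1, NLRP12 and NLRC4 had between 2.31 and 3.98 CPM per kb with mebendazole and between 3.57 and 5.67 with DMSO. Neighbours in that order could not all be told apart: NLRP1 and NLRP12 met at 3.80 with mebendazole, and NLRP12 and NLRC4 overlapped with DMSO. CASP5 (0.361 ± 0.22 and 0.207 ± 0.077) and AIM2 (0.0154 and 0.0128) came last in both groups. Divided by the length of all annotated exons instead, NLRP3 still came first with mebendazole and PYCARD with DMSO, while the order of GSDMD, CASP1 and CASP4 in both groups, of NLRP3 and CASP1 in DMSO and of the low sensors differed.

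**Figure D4:**
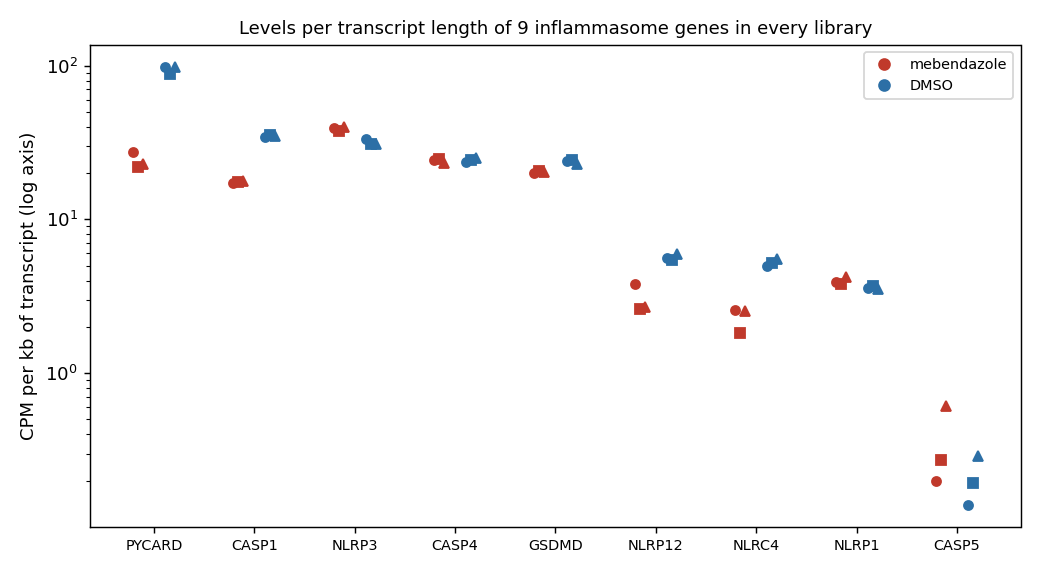
CPM per kb of principal transcript, on a log axis, for 9 genes in each library (mebendazole red, DMSO blue; symbols mark replicates 1, 2 and 3 as circle, square and triangle). PYCARD leads in DMSO at 95.1 and NLRP3 in mebendazole at 38.8, and CASP5 stays under 1 in every library.

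Genes around the inflammasome were read in 9 lists with 81 genes, of which 66 were tested, 37 rose, 21 fell and 8 were not called. Over all genes tested 82.3% were called, 40.6% higher and 41.7% lower, so a high count of calls in a list is not particular to it. The median log2 fold change of the tested list genes was 0.52, against -0.03 over all genes, and no list was tested against other genes. Within each list, the named genes come from the 4 tested genes with the smallest p. NOD2, CIITA, MEFV, P2RX7, NEK7, MARK4, HDAC6, BTK, BRCC3, GBP1, GBP3, GBP4, IL18 and IL18BP are named besides, chosen after their values were seen. With library totals the NLR, PYHIN, GBP, cytokine and rupture lists had the same counts of higher and lower calls, while the others had 1 higher and 4 lower (pyrin), 2 and 3 (CARD and PYD), 14 and 4 (NLRP3 activation) and 4 and 2 (cell death).

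Of 13 other NLR genes, 8 were tested, 6 fell and 0 rose (median log2 fold change -1.46). NAIP, the receptor that hands bacterial ligands to NLRC4, had 3.48 ± 0.307 CPM with mebendazole and 25.6 ± 1.83 CPM with DMSO (SD, n = 3 each), a 7.33-fold lower level. NAIP has near-identical copies in the genome, so its value is uncertain. NLRC3, a dampener of innate signalling, had a log2 fold change of -2.15, NLRC5, the activator of MHC class I genes, one of -1.63, and NLRX1, a mitochondrial NLR protein, one of -1.30. NOD2, a receptor for bacterial cell wall fragments, was not called (adjusted p = 0.0558, edgeR), nor was CIITA.

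The PYHIN genes, which neighbour AIM2 on chromosome 1 and encode proteins related to it, all fell. MNDA was 46.9-fold lower and IFI16, a nuclear DNA sensor, had 11.3 ± 1.58 CPM with mebendazole and 45.1 ± 1.82 CPM with DMSO. PYHIN1 had 0.255 ± 0.248 CPM with mebendazole and 3.55 ± 0.554 CPM with DMSO.

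Of 6 tested genes of the pyrin inflammasome, 2 rose and 3 fell (median log2 fold change -0.08). ARHGEF2, which encodes a RhoA activator that is released from microtubules when they come apart, had 480 ± 19.9 CPM with mebendazole and 300 ± 5.88 CPM with DMSO (log2 fold change 0.68). RHOA, the GTPase whose inhibition triggers pyrin, had a log2 fold change of 0.24 with TMM and of -0.01 with library totals. PSTPIP1, which binds pyrin, fell, with a log2 fold change of -0.37. MEFV, the pyrin gene itself, had 38.7 ± 2.23 CPM with mebendazole and 44.8 ± 2.25 CPM with DMSO (log2 fold change -0.21, adjusted p = 9.58e-04, edgeR).

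Among CARD and PYD proteins and DPP inhibitors, 5 of 9 were tested, 2 rose and 1 fell (median 0.07). DPP8 rose with a log2 fold change of 0.70 and CARD8, a CARD sensor held by the same peptidases, with 0.35. DPP9 was not called (0.07, adjusted p = 0.155, edgeR) and was called lower with library totals (-0.17). CARD16 had 6.69 ± 0.613 CPM with mebendazole and 8.49 ± 0.461 CPM with DMSO (log2 fold change -0.34), a call that was lost in DESeq2 (adjusted p = 0.162).

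Of 18 tested genes of NLRP3 activation and traffic, 14 rose and 3 fell (median log2 fold change 0.96). Of all genes tested, 40.6% rose and 41.7% fell. The list was not split by whether a product promotes or restrains NLRP3, so these counts give no direction for NLRP3 activation. PTPN22, a phosphatase that acts on NLRP3, had 220 ± 6.51 CPM with mebendazole and 44.6 ± 0.748 CPM with DMSO. PANX1, a membrane channel that lets ATP out, and CLIC4, a chloride channel protein, were 3.87-fold and 3.32-fold higher. P2RX7, the ATP-gated channel that starts potassium efflux, had 48.0 ± 3.53 CPM with mebendazole and 10.3 ± 1.13 CPM with DMSO. NEK7, the kinase that bridges NLRP3 subunits, was 1.63-fold higher, and MARK4 and HDAC6, which move NLRP3 along microtubules, were 2.79-fold and 1.43-fold higher. TXNIP, a thioredoxin inhibitor that binds NLRP3, had 591 ± 3.72 CPM with mebendazole and 1360 ± 19.4 CPM with DMSO. BTK and BRCC3, which modify NLRP3, fell as well.

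Guanylate-binding proteins coat bacteria and expose lipopolysaccharide to caspase-4, and IRF1 and IRF2 drive transcription of genes in this pathway. Of 6 tested, 4 rose and 2 fell (median 0.95). GBP5 was 4.44-fold, IRF1 2.21-fold, GBP2 2.15-fold and IRF2 1.74-fold higher. GBP3 and GBP4 fell, and GBP1 was under the filter.

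Of 7 tested genes of substrates, cytokines and their inhibitors, 6 rose and 1 fell (median 2.30). IL1B had 602 ± 59.5 CPM with mebendazole and 8.20 ± 0.792 CPM with DMSO, and its antagonist gene IL1RN was 4.92-fold higher. IL18 had 36.0 ± 0.504 CPM with mebendazole and 16.7 ± 1.02 CPM with DMSO. The gene that fell was IL18BP, which encodes the decoy receptor of IL-18, with 9.66 ± 1.8 CPM with mebendazole and 30.0 ± 1.08 CPM with DMSO. SERPINB9, which encodes an inhibitor of granzyme B, and SERPINB1, whose product inhibits neutrophil proteases and restrains inflammatory caspases, were 15.6-fold and 2.47-fold higher.

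Of 6 tested genes of membrane rupture, repair and other gasdermins, 4 rose and 1 fell (median 0.77). NINJ1, which breaks the membrane open after pore formation, had 393 ± 1.81 CPM with mebendazole and 61.9 ± 1.96 CPM with DMSO, and CHMP4B, an ESCRT subunit that repairs it, was 3.60-fold higher. DFNA5, the gene of gasdermin E, was 1.69-fold higher, and HMGB1, a nuclear protein released by dying cells, fell by 0.42 on the log2 scale. Of 7 tested genes of other cell death pathways, 5 rose and 1 fell (median 0.52). RIPK1, a kinase of death receptor signalling, was 2.40-fold higher, and MLKL, the pore protein of necroptosis, was 1.74-fold lower.

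**Figure D5:**
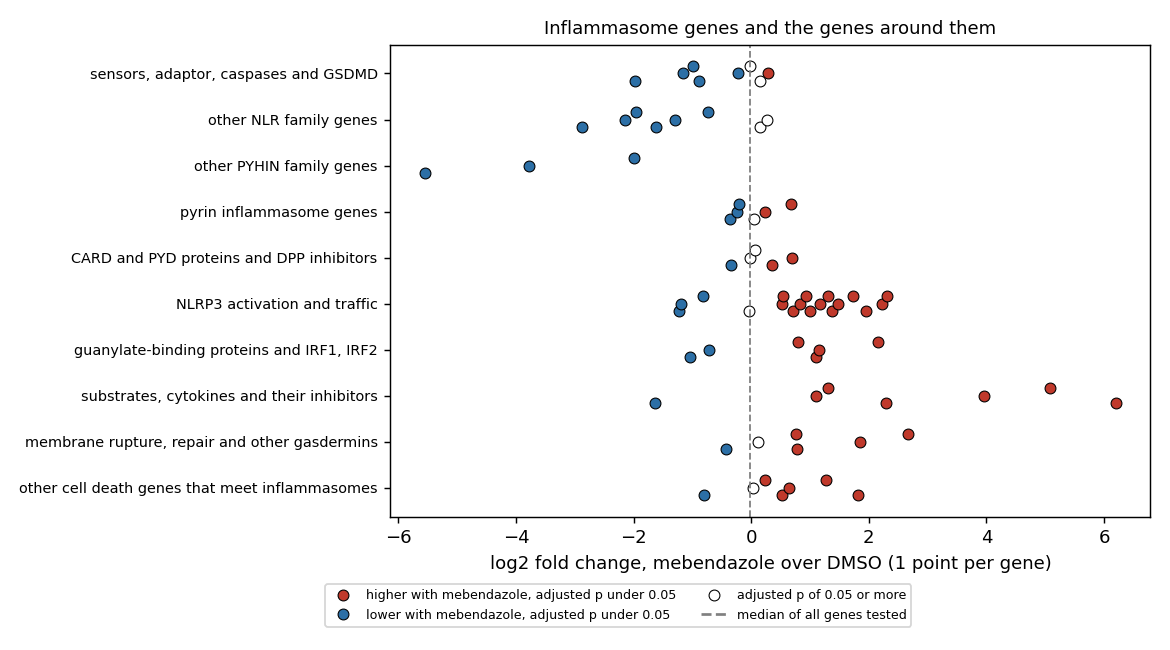
Log2 fold change, mebendazole over DMSO, of each tested gene in 10 groups (1 point per gene; red higher, blue lower, open not called), with the median of all genes as a dashed line. PYHIN and other NLR genes lie left of the line except NOD2 and CIITA, and most substrate and NLRP3 activation genes lie right of it.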

How the data were processed

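RNA-seq was analysed for 6 libraries of THP-1 cells, 3 with mebendazole and 3 with DMSO. The library kit was TruSeq RNA v2 (Illumina), per the labels' protocols. The authors deposited raw read counts per gene symbol, with 0 columns of no sample. Per the submitters' processing notes, the tools were STAR, bedtools, HTSeq and DESeq2 and the build was hg19, with neither roles nor versions. Annotation, strand setting and filters were not given in the sources used here.

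Genes were tested with edgeR 4.0.16 in R 4.3.3: filterByExpr on the group (13591 genes, 99.9% of reads), TMM factors, and a two-sided quasi-likelihood F test with the sample pair as a term, since the labels number sample pairs and the series' design text states pairs. Neither says what a pair shares. Within pairs 1, 2 and 3, deviations from the group means had correlations of 0.0016, 0.11 and 0.038. The SE is the size of the log2 fold change divided by the square root of F. The spread is mostly pooled over genes (prior degrees of freedom 61.0, residual 2), so a small p of a single gene rests mainly on that pool. Replicates of a group differed by more than counting noise (chi-square per degree of freedom 1.45 to 3.27), so none was taken for a library deposited more than once. This does not show that they came from separate cultures. Intervals cover counting error only.

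The members and lists were chosen with earlier results of these data known, and no list test was run. Named genes are all members and, per list, the 4 tested genes with the smallest p, of which some are not reported here. Ratios were compared by an exact permutation test over libraries. The fit was tested on simulated data in which a small part of the genes changed, equally in both directions, with no pair effect. It cannot show how the fit does where most genes are called, as here. Promoters came from RefSeq (GRCh38.p14), and lengths and neighbours, matched by symbol, from GENCODE 29, which is not the build of the counts. Alternatives were other scalings, DESeq2 1.42.0, other filters, no pair term and leaving out each pair.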

Additional observations from a re-analysis of the deposited data

How the results depend on the processing

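Of the 8 tested members, 4 (PYCARD, CASP1, NLRC4, NLRP12) kept sign and call throughout the alternatives, as did 27 of the 35 list genes taken by smallest p. Those list genes were picked by small p in these same libraries, which favours keeping a call. The share of all genes that kept sign and call was not counted. The list genes named besides were not followed singly. The number of members called was 6, and 4 to 7 over the alternatives. The count of all genes called (11192) left its 1.5-fold range only in the test against a 1.5-fold change (5774), which was chosen after seeing the data and by construction passes fewer genes. With no replicate block, 11118 genes, 6 members and 58 list genes were called, the last as in the paired fit. No tested member and none of those 35 list genes changed its call. Without 1 pair, 10572 to 10885 genes and 6 to 7 members were called.

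Signs turned for genes with small values. NLRP1 lay at -0.087 with library totals and -0.015 with upper quartile factors, which moved the median of all genes by -0.24 and -0.17, and was called at 0.18 in edgeR with RLE size factors (adjusted p = 0.0398) but not in DESeq2 itself (0.18, adjusted p = 0.258). CASP4 lay at 0.0030 with RLE size factors, 0.0031 in DESeq2, and between -0.041 (without pair 1) and 0.024 (without pair 3) when a pair was left out, uncalled each time. With upper quartile factors CASP4 was called lower (-0.19, adjusted p = 0.00112, edgeR), as it was with library totals. RHOA lay at -0.0052 with library totals, and DPP9 at -0.17 with library totals, -0.10 with upper quartile factors and -0.0074 without pair 3. The cause of the turns without pair 3 was not tested. For the 6 ratios a sign-flip test over pairs, in place of the unpaired one, gave p = 0.25 each (exact permutation), the smallest 3 pairs allow. DPP9 was called without pair 1 (0.15), and CARD16 lost its call without pair 2 (adjusted p = 0.0559, edgeR). Low counts limit AIM2 and CASP5, which were not tested in the filtered fit.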
